A study of Mus musculus with 20 samples.

Results

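Untreated Mcu-/- macrophages were compared with untreated WT macrophages in 7 RNA-seq libraries, 3 of Mcu-/- (replicates 1 to 3) and 4 of WT (replicates 1 to 4), of 20 libraries in the whole series. The cells were bone marrow-derived macrophages (BMDMs), which were grown from mouse bone marrow for 7 d in L929-conditioned medium and used on days 9 to 14, from mice aged 15 to 25 weeks. The Mcu-/- cells came from mice with a floxed *Mcu* allele and Cre under the *Cx3cr1* promoter, and the labels give the other group as WT. Which exons were removed, whether the Cre sits in *Cx3cr1* itself and whether the WT mice carried a floxed allele or Cre are not given in the sources used here. Neither group received zymosan or BAPTA-AM, the agents of the other groups. The comparison addresses which transcripts differ without *Mcu* before any stimulus. The libraries were chosen from the data: Mcu-/- replicate 4 lay far from every other untreated library, was left out of the fit, and is shown beside the results. This choice lowers the spread within the Mcu-/- group, so the adjusted p values describe these 7 libraries and not all 8.

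The mitochondrial calcium uniporter carries Ca2+ across the inner mitochondrial membrane. *Mcu* encodes its pore, *Smdt1* (EMRE) a regulatory subunit, and *Mcub* a pore-like paralogue that lowers conductance. In macrophages mitochondrial uptake removes part of the Ca2+ that rises in the cytosol, where Ca2+ acts on Ca2+-dependent signalling. Macrophages at rest also keep a low tonic expression of interferon-stimulated genes through autocrine type I interferon.

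Total counts on genes were 14.4 to 19.3 M in the WT and 22.1 to 22.8 M in the 3 Mcu-/- libraries, so 1 CPM, the field's unit for a gene's counts scaled to the size of its library, stood for about 14.4 to 22.8 reads. The mean chi-square per gene was 1.61 to 4.46 in the 9 pairs of libraries of the same group and 3.82 to 5.99 in the 12 pairs across groups. In the 7 pairs with Mcu-/- replicate 4 it was 183 to 227. Summed levels of the 28 macrophage markers were 29200 to 29600 CPM in WT and 31100 to 31200 CPM in Mcu-/- libraries. Of the 16 T and NK cell markers in the table, 6 were at 0 counts in all 7 libraries, including *Cd3e* and *Cd3g*. With these, 13 stayed under 1 CPM, while *Cd4*, *Cd28* and *Il7r* were at 1.35 to 4.22 CPM. The list's sum was 7.05 to 8.36 CPM in WT and 8.65 to 10.4 CPM in Mcu-/- libraries. Of the 15 fibroblast and stromal markers, *Dcn* and *Lum* were at 0, 6 stayed under 1 CPM in every library, and the endothelial and leukocyte adhesion gene *Pecam1* was at 57.3 to 65.8 CPM. Of 16 neutrophil markers, 11 stayed under 1 CPM, while *Csf3r* was at 111 to 119, *Mmp8* at 3.66 to 6.55 and *Lcn2* at 2.84 to 4.63 CPM. The neutrophil markers *S100a9* and *S100a8* were at 1.22 to 2.57 and 0.816 to 1.36 CPM. The Y-linked gene *Ddx3y* was at 109 to 123 CPM in WT and 110 to 121 CPM in Mcu-/- libraries, so cells of male origin were present in each library.

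*Mcu* (ENSMUSG00000009647, chromosome 10 of mm10 from 59446984 to 59616692) was measured at 10.3, 7.95, 9.38 and 8.43 CPM in the WT libraries and at 3.49, 4.63 and 3.23 CPM in the Mcu-/- libraries. The groups did not overlap, and transcript counts on *Mcu* remained in each Mcu-/- library, at 72 to 106 reads. *Mcu* fell by 58.0% in Mcu-/- macrophages, to 3.79 ± 0.744 CPM (SD, n = 3) from 9.01 ± 1.03 CPM (SD, n = 4) in WT (log2 fold change −1.25, SE 0.13, edgeR adjusted p = 1.23e-07). Replicate 4 had 4.83 CPM, below every WT library as well. Of the 16 members of the uniporter and exchanger list, *Mcu* was the 1 called gene. The pore paralogue *Mcub* was at 45.0 to 45.7 CPM in WT and 48.1 to 49.9 CPM in Mcu-/- libraries, which did not overlap, but its log2 fold change of 0.11 missed the threshold (edgeR adjusted p = 0.222). *Smdt1* had a log2 fold change of 0.03, as did the Na+/Ca2+ exchanger *Slc8b1*.

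Beyond *Mcu*, the untreated genotypes differed in few genes and by small amounts. Of 11270 genes tested by edgeR's quasi-likelihood test, 194 were higher and 224 lower in Mcu-/- macrophages at a Benjamini-Hochberg adjusted p under 0.05, together 3.71% of the genes tested. At an unadjusted p under 0.05 there were 1769 genes (15.7%), 7.85% of the genes tested higher and 7.84% lower. The median change of the called genes was 0.24 on the log2 scale for those higher and −0.23 for those lower, and the median over all genes tested was 0.000237. An absolute log2 fold change of at least 1 was reached by 7 of the higher (0.0621% of genes tested) and 38 of the lower genes (0.337%), of which 6 and 37 had under 10 CPM in the higher group. Leaving out Mcu-/- replicate 3 lowered the counts most, to 89 higher and 109 lower, and without Mcu-/- replicate 2 they were 122 and 129. Without WT replicate 2 they were 144 and 142. Among all genes tested, the 3 Mcu-/- libraries lay wholly above the 4 WT libraries in 7.01% and wholly below in 7.01%, together 14%, and 50.1% had a log2 fold change above 0. For single genes, an exact two-sided permutation test of 3 against 4 libraries cannot go below p = 0.0571, the value for *Mcu* and each of the 30 leading genes below. The labels call the replicates biological, but nothing says that they came from separate mice, so the p values measure the spread between these libraries, which may in part be technical.

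**Figure D1:**
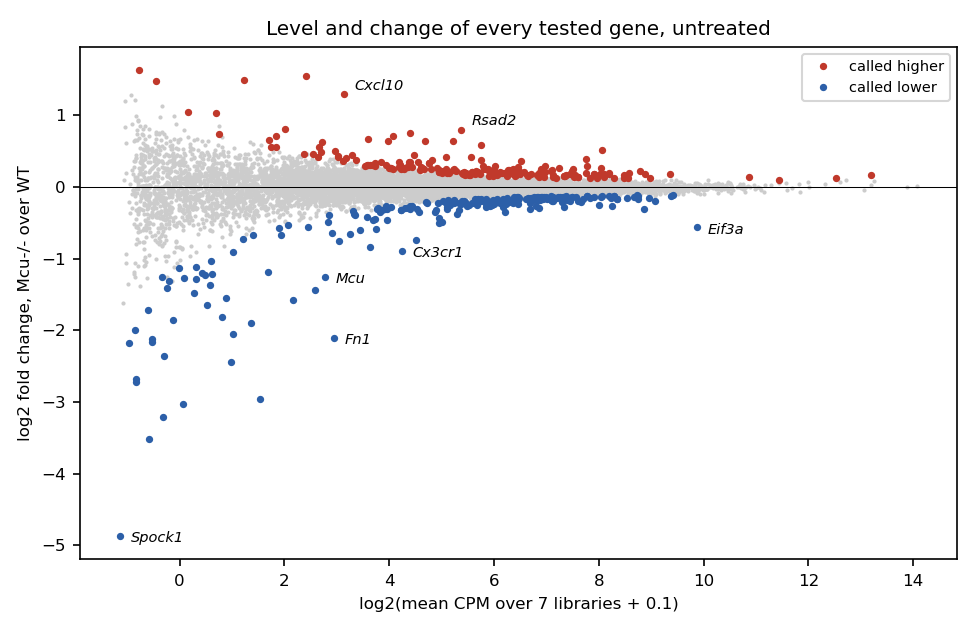
Log2 fold change in Mcu-/- over WT untreated macrophages (y axis) against log2 of the mean CPM over the 7 libraries plus 0.1 (x axis); each point is 1 of 11270 genes tested, red called higher (194), blue called lower (224), grey not called. The largest falls, such as *Spock1*, lie at low levels, while *Eif3a* stands apart among abundant genes.

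The genes of the type I interferon response rose as a group of called genes without a fall. Of 79 list members tested, 22 were higher and 0 lower, against 1.72% and 1.99% of all genes, and at an unadjusted p under 0.05 the list had 38 higher and 1 lower. The median log2 fold change of the list was 0.12, with 69 of 79 members above 0. The chemokine gene *Cxcl10*, whose product attracts T cells, was at 5.66, 4.36, 5.50 and 5.87 CPM in WT and at 11.5, 14.1 and 13.7 CPM in Mcu-/- libraries. Every Mcu-/- library was above every WT library, by a fitted 2.46-fold (log2 fold change 1.30, SE 0.11, edgeR adjusted p = 1.57e-09). *Rsad2*, which encodes the antiviral enzyme viperin, was at 28.5, 32.7, 32.3 and 32.2 CPM in WT and at 56.2, 55.6 and 52.3 CPM in Mcu-/- libraries. It rose 1.74-fold (log2 fold change 0.80, SE 0.05, edgeR adjusted p = 7.69e-12). The nucleotide kinase gene *Cmpk2*, 12751 bases from *Rsad2* on chromosome 12, was at 12.1 to 13.7 CPM in WT and 20.7 to 22.6 CPM in Mcu-/- libraries, a log2 fold change of 0.71. The RNA-binding effectors *Ifit1*, *Ifit2* and *Ifit3*, which lie together on chromosome 19, rose by 0.65, 0.64 and 0.45 on the log2 scale. *Ifit3* varied most among the Mcu-/- libraries, at 29.5, 26.3 and 22.4 CPM against 18.6 to 19.4 CPM in WT. Smaller rises were called in the GTPase gene *Mx1* (0.35), the oligoadenylate synthetase-like *Oasl1* (0.50), the DNA-binding *Ifi204* (0.17) and the RNA sensors *Ifih1* (0.22) and *Ddx58* (0.19), all as log2 fold changes. Of the interferon gamma and GTPase list, 3 of 43 tested members rose, namely *Gbp5* (0.81), *Gbp2* (0.30) and the class I gene *H2-T23* (0.19), and 0 fell. The interferon list had 13 and 12 called members without Mcu-/- replicate 1 and 2, against 12 to 23 over the 7 libraries left out in turn. *Mx1*, *Ifi204*, *Ifih1*, *Ddx58*, *Gbp2* and *H2-T23* each lost the call without at least 1 library, with adjusted p up to 0.178 by edgeR. The 14 class II presentation genes tested had 0 calls by edgeR, and 0 at an unadjusted p under 0.05.

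In replicate 4 all 22 of the called interferon genes lay above every WT library, against 41.7% of all genes tested. Called or not, 78 of the 79 tested list members lay above the WT mean in that library. Its values therefore do not single out the called genes. *Rsad2* reached 290.2 CPM and *Ifit2* 324 CPM in it. The list's median difference from the WT mean was 1.89 on the log2 scale in that library, against 0.09 to 0.14 in replicates 1 to 3. With 8 libraries fitted, 1 of the 79 members was called.

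The stretches before the start sites of 4 called genes are shown because they hold the sequences that interferon-activated or cell cycle factors are known to bind. An interferon-stimulated response element was searched as GAAA, any 2 bases and GAAA again, and E2F sites as TTTGGCGC, TTTCCCGC, TTTCGCGC and TTTGCCGC, on both strands, in the 250 bases before each RefSeq start (GRCm38.p6). The E2F sequences can overlap on opposite strands and then appear as 1 longer run of capitals. Capitals mark the matches, and each sequence reads in the direction of its gene. *Rsad2* lies on the minus strand (chr12:26456453-26456702), *Cxcl10* on the minus strand (chr5:92348890-92349139), *Mcm6* on the minus strand (chr1:128359706-128359955) and *Mcm5* on the plus strand (chr8:75109259-75109508).
Rsad2: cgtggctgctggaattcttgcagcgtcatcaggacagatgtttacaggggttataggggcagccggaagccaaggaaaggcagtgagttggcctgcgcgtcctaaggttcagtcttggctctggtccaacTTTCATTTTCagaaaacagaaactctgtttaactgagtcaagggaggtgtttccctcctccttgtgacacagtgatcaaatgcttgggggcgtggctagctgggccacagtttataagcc
Cxcl10: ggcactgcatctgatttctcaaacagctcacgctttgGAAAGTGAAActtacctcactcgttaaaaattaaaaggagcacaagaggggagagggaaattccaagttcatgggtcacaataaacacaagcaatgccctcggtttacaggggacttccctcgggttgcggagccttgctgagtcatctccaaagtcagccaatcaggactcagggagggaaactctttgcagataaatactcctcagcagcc
Mcm6: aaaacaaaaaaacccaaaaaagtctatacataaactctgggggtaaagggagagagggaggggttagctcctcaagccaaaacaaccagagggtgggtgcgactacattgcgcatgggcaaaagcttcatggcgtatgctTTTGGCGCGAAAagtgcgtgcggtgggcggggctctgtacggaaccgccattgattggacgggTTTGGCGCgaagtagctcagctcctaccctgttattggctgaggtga
Mcm5: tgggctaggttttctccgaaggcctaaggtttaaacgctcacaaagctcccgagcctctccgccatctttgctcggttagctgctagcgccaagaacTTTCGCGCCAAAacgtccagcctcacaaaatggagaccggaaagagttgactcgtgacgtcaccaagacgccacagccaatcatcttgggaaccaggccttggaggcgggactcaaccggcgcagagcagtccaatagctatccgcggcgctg
The match in *Rsad2* began 120 bases before the start, and that in *Cxcl10* 213 bases before it. The interferon element was found in 2.98% of all 32851 promoters of the table and in 2.82% of the 11385 promoters of genes tested. It was found in 21 of the 205 promoters matched to genes called higher (10.2%) and in 7 of the 228 of genes called lower (3.07%). Within the called interferon genes it was found in 11 of 19 promoters (57.9%), against 29 of 78 (37.2%) for all tested members of that list, and in 6.02% of the promoters of genes called higher outside the interferon and replication lists. An E2F sequence was found in 1.86% of all promoters, 3.29% of those of tested genes, 5.85% of those of genes called higher and 2.19% of those of genes called lower. It was found in 5 of 20 promoters of the called replication genes and 15 of 72 (20.8%) of all tested members of that list. Outside the interferon and replication lists it was found in 6 of the 166 promoters of genes called higher (3.61%). The called genes *Ifit2* and *Cmpk2* had 0 matches to the interferon element, and *Rrm2* had 0 to E2F. These shares are counts of letters in a window and do not show that a factor was bound.

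Genes of DNA replication and the G1/S transition also rose together, by less. Of 74 list members tested, 21 were higher and 0 lower, against 1.72% and 1.99% of all genes. The median log2 fold change was 0.19, and 71 of 74 lay above 0. At an unadjusted p under 0.05 the list had 49 higher and 0 lower. The helicase subunit *Mcm6* was at 126, 123, 133 and 126 CPM in WT and at 157, 144 and 149.8 CPM in Mcu-/- libraries. It was 18.3% higher (log2 fold change 0.24, SE 0.04, edgeR adjusted p = 0.000133), without overlap between groups. *Mcm5*, another subunit, was at 73.8 to 77.8 CPM in WT and 87.5 to 94.8 CPM in Mcu-/- libraries, a log2 fold change of 0.25. *Mcm2*, *Mcm3*, *Mcm4* and *Mcm7* were called as well, so each of the genes of the hexameric helicase was higher. The called members further included the sliding clamp *Pcna* (0.18), the ribonucleotide reductase subunit *Rrm1* (0.22), the maintenance methylation factor *Uhrf1* (0.29), the S phase cyclin *Ccne2* (0.34) and the thymidine kinase *Tk1* (0.20), as log2 fold changes. The uracil glycosylase *Ung*, which is outside the list, was higher too, at 8.0 to 8.91 CPM in WT and 10.6 to 11.8 CPM in Mcu-/- libraries. Across the list, changes of called members ran from 0.18 to 0.34 on the log2 scale, and Mcu-/- libraries had 2750 to 2830 summed CPM against 2460 to 2520 in WT. The list had 12 called members without Mcu-/- replicate 3 and 15 to 22 without any other library, and *Mcm4*, *Mcm7* and *Tk1* were among those that lost the call without at least 1 Mcu-/- library.

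Of 79 mitosis genes tested, 9 were higher and 0 lower, against 1.72% and 1.99% of all genes. The list's median was 0.13, with 71 members above 0. *Cdk1*, the kinase that drives entry into mitosis, was at 68.3 to 74.7 CPM in WT and at 83.0, 87.6 and 85.5 CPM in Mcu-/- libraries (log2 fold change 0.24, SE 0.04, edgeR adjusted p = 0.000553). The microtubule regulator *Stmn1* was at 116 to 118 CPM in WT and 134 to 137 CPM in Mcu-/- libraries, a log2 fold change of 0.21. The condensin subunits *Smc2* and *Smc4* rose by 0.17 each. *Ccnd2*, a G1 cyclin, moved the other way, from 34.1 to 36.8 CPM in WT to 22.5 to 26.8 CPM in Mcu-/- libraries (log2 fold change −0.51, SE 0.06, edgeR adjusted p = 1.49e-06). The CDK inhibitor *Cdkn2c* rose by 0.20. The called mitosis genes numbered 2, 4 and 5 without Mcu-/- replicate 3, 2 and 1, and 3 without WT replicate 2, and *Smc2*, *Smc4* and *Cdkn2c* lost the call in some of these fits. The median stayed between 0.12 and 0.14 in each of the 7 fits. In bulk samples, more cells of one kind and more RNA per cell cannot be told apart, so a larger share of dividing cells and higher expression in each cell are not separated here. Replicate 4 was opposite for these lists, with a median of −0.54 for replication and −2.59 for mitosis. All 9 of the called mitosis genes and 16 of the 21 called replication genes were below every WT library in it, against 42.0% of all genes tested. With 8 libraries fitted, the medians were 0.04 and −0.20 and neither list had a called member.

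**Figure D2:**
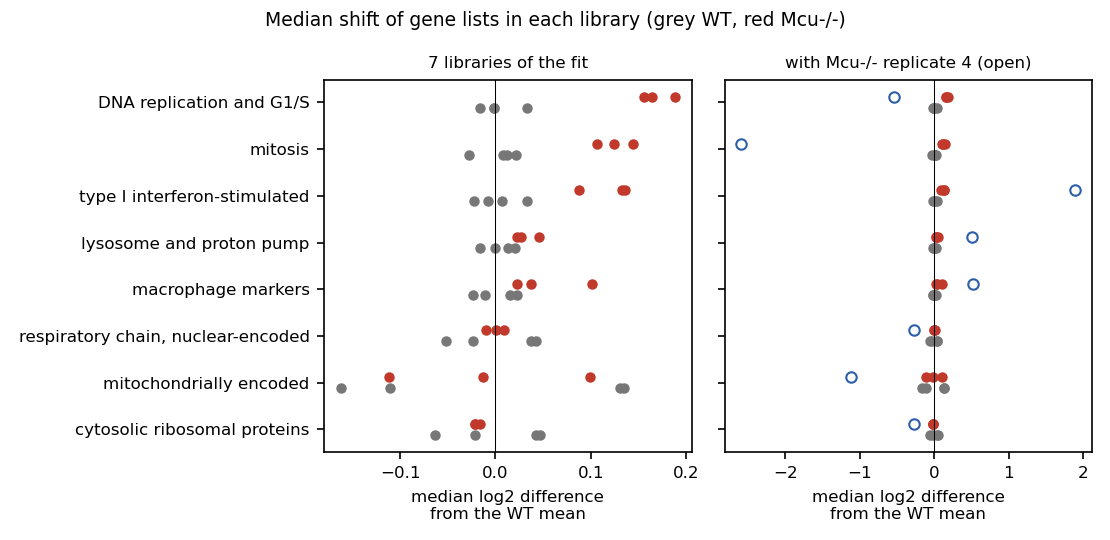
Median over list members of the log2 difference of each library from the mean of the 4 WT libraries (x axis, 8 lists); grey points are WT, red points Mcu-/- replicates 1 to 3, and the open circle in the right panel Mcu-/- replicate 4. Replicates 1 to 3 sit above all WT libraries for replication, mitosis and type I interferon genes, while replicate 4 lies at −0.54, −2.59 and 1.89 for these lists.

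Inflammatory genes moved in both directions. Of 72 NF-kB target cytokines and regulators tested, 6 were higher and 6 lower, against 1.72% and 1.99% of all genes. The median log2 fold change was −0.03. *Cxcl2*, a neutrophil-attracting chemokine, was at 1.15, 1.71, 0.995 and 1.17 CPM in WT and at 2.90, 4.24 and 3.59 CPM in Mcu-/- libraries (log2 fold change 1.5, SE 0.21, edgeR adjusted p = 1.65e-05). *Il6*, a pyrogenic cytokine gene, had 1, 3, 8 and 6 reads in the WT and 17, 15 and 21 reads in the Mcu-/- libraries (log2 fold change 1.63, SE 0.45, edgeR adjusted p = 0.033). *Il12b*, the p40 subunit shared by interleukins 12 and 23, did not pass the filter on low counts, with 0 to 3 reads in WT and 7 to 11 in Mcu-/- libraries. The receptor antagonist gene *Il1rn* was at 40.2 to 56.0 CPM in WT and 58.4 to 66.1 CPM in Mcu-/- libraries, a rise of 0.38 on the log2 scale. *Acod1*, the itaconate synthase, rose by 0.33, and the monocyte chemokine *Ccl7* by 0.19. The lower genes were led by the acute phase gene *Saa3*, at 38.7 to 47.2 CPM in WT and 30.8 to 35.03 CPM in Mcu-/- libraries (log2 fold change −0.38). They also held the feedback inhibitors *Tnip1* (−0.19) and *Zc3h12a* (−0.20) and the subunit gene *Nfkb2* (−0.21). *Ccrl2*, a chemerin-binding receptor, and the activation antigen *Cd69* had values without overlap and log2 fold changes of 0.58 and 0.41, but missed the threshold (edgeR adjusted p = 0.051 and 0.074). Of 42 immediate early and Ca2+-responsive genes, 1 was called, *Trib1*, lower by 0.17. Without Mcu-/- replicate 3 the NF-kB list had 3 higher and 2 lower members, and without WT replicate 2 it had 5 and 3. *Il6*, *Ccl7*, *Zc3h12a*, *Nfkb2* and *Trib1* each lost the call without at least 1 library, *Il6* without any 1 of 5 (edgeR adjusted p up to 0.168).

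Among the genes of at least 10 CPM, the largest fall was in *Fn1*, which encodes the matrix glycoprotein fibronectin. It was at 11.6, 9.77, 11.3 and 12.9 CPM in WT and at 2.68, 2.18 and 3.05 CPM in Mcu-/- libraries, and so fell by 76.7% (log2 fold change −2.10, SE 0.13, edgeR adjusted p = 3.18e-12). Of 34 tested members of the matrix and protease list, 5 fell and 7 rose, against 1.99% and 1.72% of all genes. The list's median was 0.03. The falls included *Fn1*, the collagen-binding *Sparc* (−1.90), the matricellular *Thbs1* (−0.50) and the TGF-beta-induced *Tgfbi* (−0.31), these 4 with no overlap between groups. The rises were led by the elastase *Mmp12*, at 42.7 to 45.8 CPM in WT and 63.2 to 70.5 CPM in Mcu-/- libraries (log2 fold change 0.58). Osteopontin (*Spp1*, 0.40), urokinase (*Plau*, 0.36) and galectin-3 (*Lgals3*, 0.29) also rose.

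Among the falls of 1 or more on the log2 scale were matrix and stromal genes at low levels, which were not counted as a group. After their values were seen, *Igfbp7* (−3.03), *Bgn* (−2.36), *Hspg2* (−1.64), *Col5a2* (−1.48) and *Cav1* (−1.37) were picked as examples, with *Col1a1* (−1.28) and *Col1a2* (−1.24) from the stromal marker list. *Igfbp7* was at 1.94, 1.09, 1.41 and 1.59 CPM in WT and at 0.272, 0.175 and 0.0898 CPM in Mcu-/- libraries. *Spock1*, with the largest fitted fall, had 8 to 15 reads in WT and at most 1 read in Mcu-/- libraries, at the floor of 3 counts taken for detection. Of the 9 tested fibroblast and stromal markers, 2 fell and 0 rose, against 1.99% and 1.72% of all genes, with a median of −0.27. Summed over all 15 of these markers, levels were 69.4 to 79.2 CPM in WT and 68.4 to 72.5 CPM in Mcu-/- libraries, and the defining markers *Dcn* and *Lum* were at 0. *Pecam1* made up most of these sums, and the other 14 markers had 10.8 to 14 CPM in WT, 8.35 to 11.5 CPM in Mcu-/- libraries and 65.1 CPM in replicate 4. In replicate 4 *Fn1* was at 24.2, *Sparc* at 13.5 and *Col1a1* at 15.6 CPM, above every WT library. Without Mcu-/- replicate 3 *Col1a1*, *Col1a2* and *Col5a2* were not called (edgeR adjusted p up to 0.241 over the libraries left out). Whether a small number of stromal cells contributes to these values was not tested.

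The chemotactic receptor list had 3 falls and 2 rises among 32 genes tested, against 1.99% lower and 1.72% higher over all genes. *Cx3cr1*, the fractalkine receptor and the gene whose promoter drives the Cre, was at 23.5, 24.2, 23.7 and 21.9 CPM in WT and at 13.1, 12.8 and 11.9 CPM in Mcu-/- libraries. It fell by 46.1% (log2 fold change −0.89, SE 0.07, edgeR adjusted p = 7.57e-10), and replicate 4 had 11.4 CPM. The loss of *Mcu* and the Cre allele cannot be told apart for this gene. *Ccr2*, the monocyte receptor for CCL2, lies 4.03 Mb from *Cx3cr1* and was at 14.5 to 16.3 CPM in WT and 9.39 to 11.4 CPM in Mcu-/- libraries (log2 fold change −0.59). Of the 59 other genes tested within 5 Mb of *Cx3cr1*, 3 were lower, *Ccr2*, *Ppp2r3d* and *Nktr*, and 0 were higher. This share of 5.08% compares with 3.71% of all genes tested. The sphingosine phosphate receptor *S1pr1* fell by 0.24, and the semaphorin receptors *Plxnd1* and *Nrp1* rose by 0.27 and 0.19. The calls of *S1pr1*, without Mcu-/- replicate 2, and of *Nrp1*, without Mcu-/- replicate 1, were lost (edgeR adjusted p = 0.0639 and 0.0518), as were those of *Ppp2r3d* and *Nktr* without any 1 of 4 libraries.

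**Figure D3:**
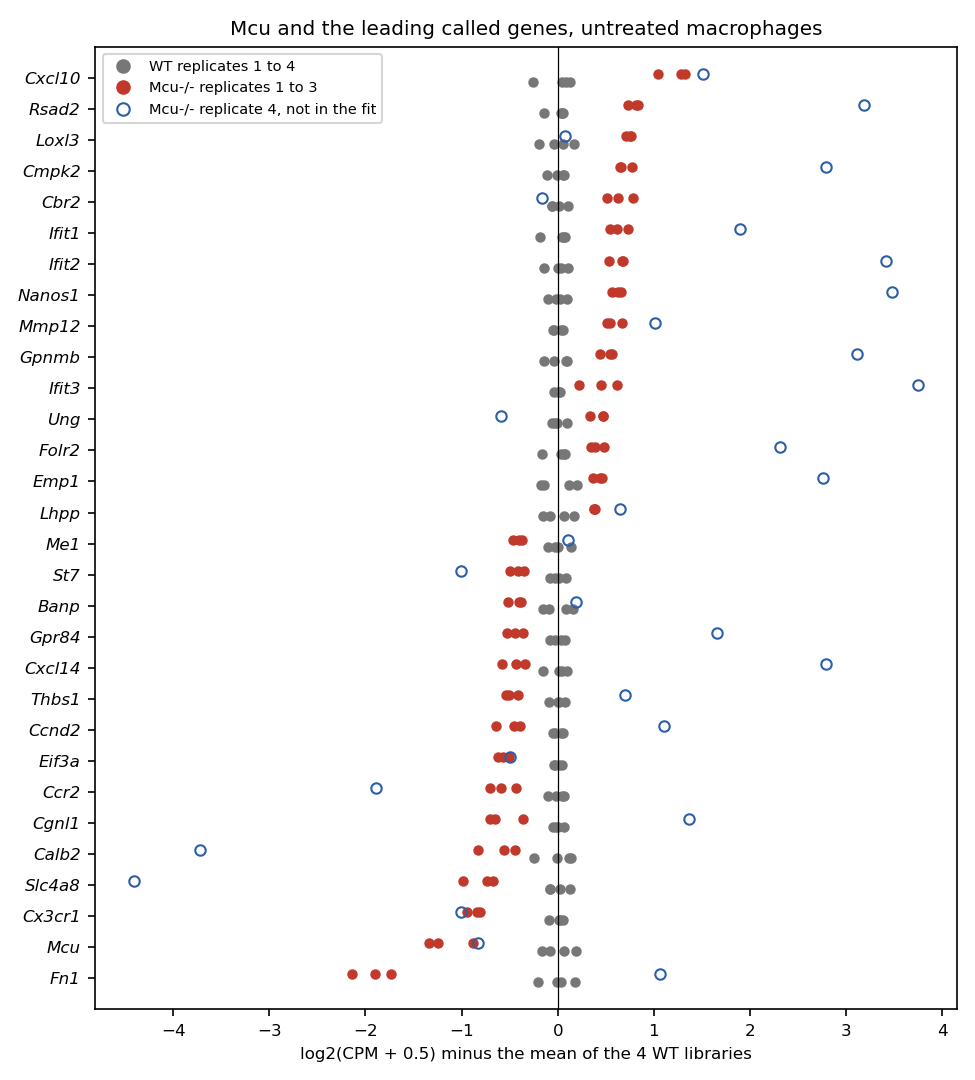
Log2(CPM + 0.5) minus the mean of the 4 WT libraries (x axis) for *Mcu* and the 15 largest rises and 14 of the 15 largest falls of at least 10 CPM without overlap; grey points are WT, red points Mcu-/- replicates 1 to 3, open blue circles Mcu-/- replicate 4. Replicate 4 lies near the other Mcu-/- libraries for *Mcu*, *Cx3cr1* and *Eif3a* and on the other side of the WT mean for *Fn1* and *Ccnd2*.

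Over all genes tested 1.72% were higher and 1.99% lower, the shares to set beside the lists of this paragraph. Of 28 macrophage markers tested, 7 were higher and 1 lower, with a median log2 fold change of 0.06. The mannose receptor *Mrc1* was at 395 to 421 CPM in WT and 462 to 487 CPM in Mcu-/- libraries (log2 fold change 0.22). The lysosomal glycoproteins *Cd68* (0.20) and *Cd63* (0.23), the lysozyme *Lyz2* (0.17) and the scavenger receptor *Msr1* (0.18) also rose, and the transcription factor *Cebpb* fell by 0.17. *Gpnmb*, a lysosomal glycoprotein of lipid-laden and alternatively activated macrophages, was at 219.6, 238, 241 and 204 CPM in WT and at 333, 305 and 329.6 CPM in Mcu-/- libraries. It rose by 0.51 (SE 0.04, edgeR adjusted p = 1.78e-09). Of 23 alternative activation genes, 5 rose and 1 fell, with a median of 0.10. The folate receptor *Folr2* rose by 0.41 and the coagulation factor *F13a1* by 0.25, and the transglutaminase *Tgm2* fell by 0.19. Of 51 lysosome and proton pump genes, 5 rose and 0 fell, with a median of 0.02. The cathepsin *Ctsl* was at 436 to 455 CPM in WT and 501 to 520.0 CPM in Mcu-/- libraries. Of 29 LXR target and lipid handling genes, 6 rose and 3 fell, with a median of 0.01, the falls being *Cd5l* (−0.15), the lipid droplet coat *Plin2* (−0.14) and the cholesterol exporter *Abcg1* (−0.18). Without Mcu-/- replicate 3 the macrophage markers had 4 rises, the lysosome list 3 and the LXR list 3, and *Msr1*, *Cebpb*, *Tgm2*, *Plin2* and *Abcg1* lost the call without at least 1 library.

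Metabolic, mitochondrial, stress, clock and Ca2+ entry genes were called about as often as all genes. These were 12 of the 369 different genes on the 11 lists of this paragraph (3.25%, against 3.71%). The sterol and fatty acid synthesis list, given further below, is not among them. Of its 40 genes tested, 2 rose and 1 fell. None of the 35 glycolysis and pentose phosphate genes, the 73 nuclear genes of the respiratory chain, the 12 mitochondrially encoded genes, the 26 hypoxia targets and the 19 clock genes passed the threshold of edgeR's test. At an unadjusted p under 0.05 these lists had 4, 5, 0, 3 and 3 genes, and their medians were between −0.03 and 0.01. Of 40 genes of the TCA cycle and pyruvate entry, 2 fell, among them malic enzyme *Me1* (−0.42). The carnitine palmitoyltransferase *Cpt1a*, which admits fatty acids to mitochondria, fell by 0.24, the 1 call among 35 oxidation genes. Of 34 genes of store-operated Ca2+ entry and Ca2+ pumps, the channel *Trpv4* (0.56) and the kinase *Camk1* (0.15) rose and the Ca2+ release channel *Itpr3* fell by 0.20. Of 36 genes of ATF4 and mitochondrial stress, *Asns* rose by 0.14 and *Atf5* fell by 0.19. Of the NRF2 and heat shock lists, 2 of the 36 NRF2 genes and 2 of the 33 heat shock genes fell, among them *Gstp1* (−0.23) and the co-chaperone *Bag3* (−0.24). *Trpv4*, *Camk1*, *Itpr3*, *Asns* and *Gstp1* each lost the call without at least 1 library.

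**Figure D4:**
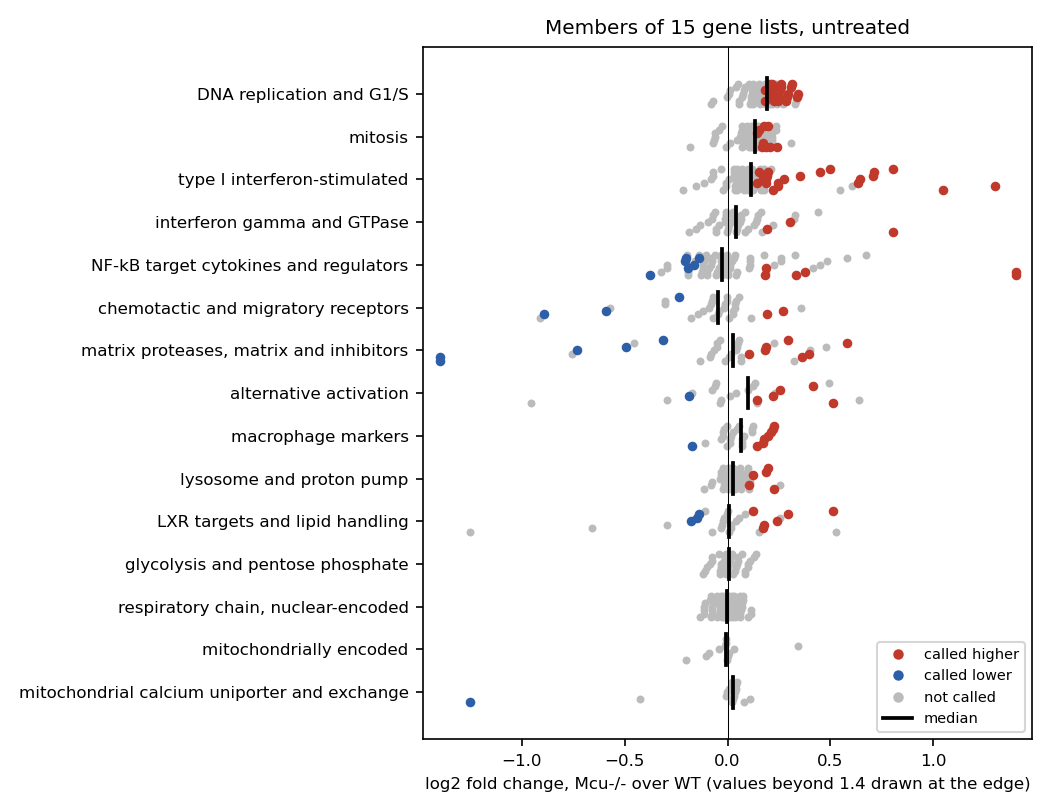
Log2 fold change in Mcu-/- over WT untreated macrophages (x axis) of the tested members of 15 gene lists; red points were called higher, blue points lower, grey points not called, and the black bar is the list median. Replication, mitosis and type I interferon genes lie mostly to the right of 0, at medians of 0.19, 0.13 and 0.12, and respiratory chain and glycolysis genes lie around 0.

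Some of the largest differences were in genes of none of these lists. *Eif3a*, the largest subunit of a translation initiation factor, was at 1063, 1099, 1121 and 1060.0 CPM in WT and at 766, 704 and 732 CPM in Mcu-/- libraries. It fell by 32.4% (log2 fold change −0.56, SE 0.03, edgeR adjusted p = 1.22e-12), with 769 CPM in replicate 4. Its neighbour *Nanos1*, whose 3′ end lies 1202 bases from that of *Eif3a* on chromosome 19, was higher, at 11.7 to 13.5 CPM in WT and 18.9 to 20.1 CPM in Mcu-/- libraries (log2 fold change 0.64). How the counting assigned reads between convergent genes is not given in the sources used here. The bicarbonate transporter *Slc4a8* fell by 0.84 and the Ca2+-binding protein calretinin, *Calb2*, by 0.66. The junction protein *Cgnl1* (−0.59), the chemokine *Cxcl14* (−0.47), the fatty acid receptor *Gpr84* (−0.46), *Banp* (−0.45) and *St7* (−0.43) also fell. The lysyl oxidase-like *Loxl3* was at 13.97 to 18.2 CPM in WT and 26.7 to 27.7 CPM in Mcu-/- libraries (log2 fold change 0.76), and *Cbr2* (0.67), *Emp1* (0.41) and *Lhpp* (0.40) rose as well. Along the genome, 0 of the 50 other genes tested within 5 Mb of *Mcu* were called, against 3.71% of all genes tested. The window of 5 Mb with most calls, on chromosome 5 from 110000001 to 115000000, held 8 called of 53 tested (15.1%). They included *Oasl1*, *Ung*, *Trpv4*, *Grk3* (−0.26), *Iscu* (−0.21) and *Fbrsl1* (−0.14). This window was picked as the largest of all. Of the genes of this paragraph, *Lhpp*, *Trpv4* and *Fbrsl1* lost the call without at least 1 library.

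With zymosan, a yeast cell wall preparation given for 3 h, Mcu-/- (n = 3) and WT macrophages (n = 5) differed far more widely, with 71.2% of 11156 genes called. Of the 194 genes called higher in untreated cells, 95 (49%) were called higher and 73 (37.6%) lower with zymosan, against 36% and 35.2% of all genes. Of the 224 called lower, 217 were tested with zymosan, and 94 (43.3%) were called higher and 98 (45.2%) lower. *Mcu* was lower in both settings, by 1.25 untreated and 0.83 with zymosan, and the difference between these did not pass the threshold (0.43, edgeR adjusted p = 0.0504). *Eif3a* was lower in both, by 0.56 and 0.93. *Cx3cr1* and *Fn1*, lower in untreated Mcu-/- cells, were higher with zymosan by 1.99 and 2.50, with differences of 2.90 (edgeR adjusted p = 4.45e-13) and 4.61 (edgeR adjusted p = 5.01e-20) between the settings. *Cxcl10* was higher in both, by 1.30 and 0.17, a difference of −1.11 (edgeR adjusted p = 2.81e-13). *Stmn1* and *Cdk1*, higher in untreated cells, were lower with zymosan by 3.07 and 1.87. Of the 79 mitosis genes 75 were called lower and 2 higher with zymosan. These tests of the difference leave out untreated Mcu-/- replicate 4. For *Fn1*, *Stmn1* and *Cdk1* that untreated library lay on the same side of WT as Mcu-/- cells with zymosan, and for *Cx3cr1* it did not. For many lists its median without zymosan lay near that of the genotype difference with zymosan, and for others it did not. The median was −2.59 in replicate 4 against the WT mean and −2.60 with zymosan for mitosis, −0.54 and −0.68 for replication, −1.12 and −1.01 for mitochondrially encoded genes, and 1.62 and 1.96 for stromal markers. Near pairs were also 0.59 and 0.62 for the matrix and protease list and 0.28 and 0.28 for hypoxia targets. Sterol and fatty acid synthesis genes had −0.56 and −0.64, and lysosome and proton pump genes 0.51 and 0.41. The 2 medians lay apart for other lists, at 1.89 and 0.38 for type I interferon genes and −1.09 and −2.39 for neutrophil markers. They were 0.55 and 0.06 for immediate early and Ca2+-responsive genes. For clock genes they were 0.34 and −0.20. What these 2 sets of values share was not tested. With replicate 4 in a fit of all 20 libraries, the differences were 2.92 for *Cx3cr1* (edgeR adjusted p = 2.08e-08), 3.00 for *Fn1* (edgeR adjusted p = 0.0062) and −1.20 for *Cxcl10* (edgeR adjusted p = 1.66e-06). The 3 Mcu-/- zymosan columns carry the numbers 3 to 5 where the labels count 1 to 3, so they were assigned to their group and not to single samples.

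**Figure D5:**
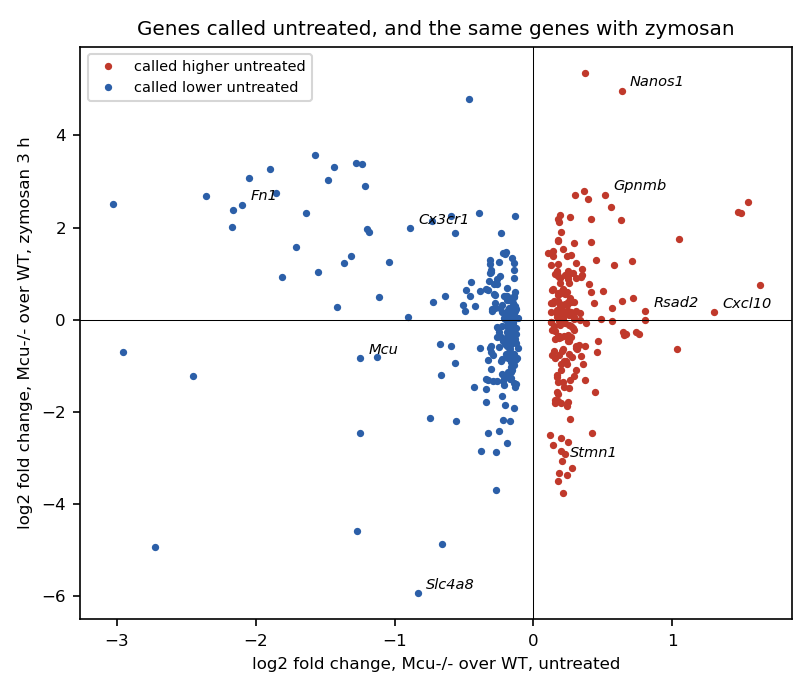
Log2 fold change in Mcu-/- over WT with zymosan for 3 h (y axis) against the same in untreated macrophages (x axis) for genes called in untreated cells; red were called higher and blue lower there. Points of both colours lie on both sides of 0 on the y axis: 95 of the red genes were called higher and 73 lower with zymosan.

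Replicate 4 was on the same side of the WT mean as the call for 113 of the 194 higher genes (58.2%) and 144 of the 224 lower genes (64.3%). Over all genes tested it was above the WT mean for 49.2% and below it for 50.8%. It lay outside the WT range on the opposite side for 76 and 72 of them. When it entered the fit with the other 7 libraries, 2 genes were higher (0.0178%) and 3 lower (0.0267%) of 11238 tested, together 0.0445%. These were *Cxcl10* and *Smo*, a Hedgehog pathway receptor, and *Cx3cr1*, *Eif3a* and *Hhip*, a Hedgehog-binding protein at about 1 CPM in WT. *Smo* was at 1.93 to 3.43 CPM in WT and 7.94 to 9.13 CPM in Mcu-/- replicates 1 to 3 (log2 fold change 1.55, SE 0.14, edgeR adjusted p = 6.78e-09), with 11.6 CPM in replicate 4. *Hhip* had 0.629 to 1.24 CPM in WT and at most 0.0898 CPM in Mcu-/- replicates 1 to 3. At an unadjusted p under 0.05 this fit had 545 genes.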

How the data were processed

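RNA was measured in bone marrow-derived macrophages. Per the paper's methods, the authors trimmed paired-end reads with cutadapt, mapped them to mm10 with STAR, counted them per gene with HTSeq and tested with DESeq2. The submitters' processing notes also name FastQC and MultiQC. The deposited counts are whole numbers per gene without normalization. The annotation and strand setting are not given in the sources used here. Of 21963 entries, 21701 symbols matched GENCODE M21 (mm10), 127 matched by synonym, 32 matched several genes and 103 had no match. Genes were filtered with filterByExpr, scaled by TMM and fitted on the 7 libraries by edgeR 4.0.16 (glmQLFit, glmQLFTest) in R 4.3.3, and CPM are on this scale, with replicate 4 placed on it through TMM factors of the 8 untreated libraries. SE was the fold change over the square root of F. Log differences of single libraries used log2(CPM + 0.5). The spread between replicates was a biological coefficient of variation of 3.44%. The zymosan groups were fitted separately (3 and 5 libraries), and differences of the genotype effect between treatments came from a fit of 19 libraries. In simulated data for this comparison every gene had the same spread of 3.44%, and the 200 changed genes had at least 10 CPM. Of these, 92 of 100 at an absolute log2 of 0.3 and 100 of 100 at 0.6 were recovered. There were 14 false calls among 11204 genes, and 0 calls where nothing was changed. Spreads that differ between genes, and changes in genes under 10 CPM, were not simulated.

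The members and the 38 gene lists, written by hand, were chosen with earlier results of these data known. Lists are described by counts and medians. Named genes were *Mcu* and the uniporter list, 6 genes by name (*Cxcl10*, *Il6*, *Il12b*, *Ccrl2*, *Cd69*, *Cx3cr1*), the 15 largest rises and falls among called genes of at least 10 CPM without overlap, up to 4 called members per list and direction of at least 5 CPM, sex-linked genes, and up to 6 called genes in each of the 3 windows of 5 Mb with most calls. Other genes named, among them further called members of the lists and the low-level matrix genes, were chosen after their values were seen. Alternatives were DESeq2 1.42.0 size factors and Wald test, other filters, the replicate number as a block, fits with replicate 4 or all groups, minimum fold changes and leaving out each library. The chance error of counts sets the precision of genes at a few CPM. Of the lists, 13 symbols, among them *Xist*, were not analysed here. Values of a few single genes that the rule names are not reported here, and the counts and medians of lists include them.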

Additional observations from a re-analysis of the deposited data

Results flagged for a closer look

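For 27 of 30 genes, *Mcu* and 29 of the leading rises and falls, the genotype difference was not the same with zymosan as without it, by a test of the difference in a fit of 19 libraries (edgeR adjusted p under 0.05). This held for 60.3% of all 11666 genes tested in that fit. The differences below are the log2 fold change of Mcu-/- over WT with zymosan minus that in untreated cells. Among the genes higher in untreated Mcu-/- macrophages, the difference was negative for the interferon-stimulated *Cxcl10* (−1.11), *Rsad2* (−0.60), *Ifit1* (−0.91) and *Ifit2* (−0.22), and for *Loxl3* (−1.04), *Cbr2* (−0.96) and the repair gene *Ung* (−2.0). It was positive for *Nanos1* (4.35), *Gpnmb* (2.22), *Folr2* (1.78), *Emp1* (1.29), *Ifit3* (0.86), *Mmp12* (0.62) and *Lhpp* (0.38). Among the genes lower in untreated cells, it was positive for the matrix genes *Fn1* (4.61) and *Thbs1* (0.69), the receptors *Cx3cr1* (2.90) and *Gpr84* (0.99), and for *Cxcl14* (5.26), *Cgnl1* (2.85), *Banp* (1.29), *Ccnd2* (0.84) and *Me1* (0.74). It was negative for *Slc4a8* (−5.09), *Calb2* (−4.19), *St7* (−1.02) and *Eif3a* (−0.35). The 19 libraries leave out Mcu-/- untreated replicate 4. With it in the fit, an alternative chosen after seeing the data, the difference was called for 18 of the 30 genes and for 35.2% of all 11707 tested. Those that lost the call were *Gpnmb*, *Folr2*, *Emp1*, *Lhpp*, *Ifit2*, *Ifit3*, *Ccnd2*, *Thbs1* and *Gpr84* (edgeR adjusted p of 0.0736 to 0.914), and the difference of *Ifit3* changed sign, to −0.88.

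In the 4 WT libraries, 1 library stood apart for 5 of 130 named genes, by the gap to the nearest library over the range of the group, and chance alone gives about 1 in 20. *Rsad2* and *Ifit1* were both lowest in WT replicate 1, with ratios of 0.886 and 0.905, and so was *Folr2*, with 0.84. *Mcub* was lowest in WT replicate 3 (0.883) and *Mcm2* highest there (0.847).

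Mcu-/- replicate 4, which was left out of the fit of 7 libraries, lay above every WT untreated library for 41.7% of the genes tested and below every one for 42.0%.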

How the results depend on the processing

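The counts of 194 genes higher and 224 lower kept within 1.5 times under DESeq2's size factors (191 and 227), DESeq2's Wald test (150 and 194), at least 10 counts in every library (184 and 199) and a fit of 19 libraries (178 and 213). With the filter at 1 count in any library they were 307 and 271. A minimum absolute log2 fold change of 0.5 left 24 and 55, and of 1 left 7 and 38. Leaving out each library gave 89 to 203 higher and 109 to 216 lower. With replicate 4 in the fit they were 2 and 3, and 15 and 26 in a fit of all 20 libraries. With the replicate number as a block there were 133 and 156, of which 128 and 148 were among the main calls. Same-numbered libraries did not deviate together (correlations of −0.044, −0.03 and −0.04), so the numbers were not taken to pair them. Correlations of unlike numbers ran from −0.087 to 0.098. By chi-square per gene, Mcu-/- replicate 1 lay nearer WT replicates 2 and 3 (3.92 and 4.03) than 1 and 4 (5.3 and 5.63). Mcu-/- replicates 2 and 3 lay nearer WT replicates 1 and 4 (3.82 to 3.98) than 2 and 3 (4.78 to 5.99). Whether the libraries share a further factor was not tested. Of the 122 named genes that were called, 75 kept the call whichever library was left out, and the Wald test lost 9 calls, the block 15 and the fit of 19 libraries 5. *Slc8b1* and *Smdt1*, which were not called, both ranged from −0.02 to 0.07 on the log2 scale without 1 library. With all 20 libraries, the zymosan minus untreated difference of *Ifit3* turned from 0.86 to −0.88. With 10 Mb windows the most calls in a window was 10. The cause of these changes was not tested, apart from fewer or more samples and genes.

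Fits with replicate 4 turned the log2 fold change of these genes, given for 8 and, where different, 20 libraries: *Atf5* (0.10 and 0.11), *Bag3* (0.02 and 0.03), *Bgn* (0.32 and 0.33), *Camk1* (−0.03), *Ccnd2* (0.10 and 0.12), *Cd5l* (0.04), *Cdk1* (−0.09), *Cdkn2c* (−0.16), *Cebpb* (0.12), *Cgnl1* (0.21 and 0.22), *Col1a1* (1.51 and 1.52), *Col1a2* (1.26), *Col5a2* (0.77 and 0.78), *Cpt1a* (0.13 and 0.14), *Cxcl14* (1.21 and 1.23), *Ddx3y* (0.02), *F13a1* (−0.04), *Fasn* (−0.04), *Gpr84* (0.43 and 0.44), *Itpr3* (0.13 and 0.14), *Lyz2* (−0.08), *Mcub* (−0.15), *Plin2* (0.66 and 0.68), *Rrm1* (−0.03), *Rrm2* (−0.12), *S1pr1* (0.18 and 0.19), *Smc2* (−0.09), *Smc4* (−0.09), *Smdt1* (−0.07), *Sparc* (0.19 and 0.20), *Srsf2* (−0.04), *Stmn1* (−0.16) and *Tk1* (−0.15). A gene at 1 CPM had 14.4 to 22.8 reads, so small changes in such genes were not detectable at this depth.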

Other observations

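Several groups that the comparison touched lightly can be given as values. Of 79 cytosolic ribosomal protein genes, 1 was lower, *Rps29* (log2 fold change −0.17), with a list median of −0.02 and 56 members below 0. Of 33 heat shock and chaperone genes, 26 lay below 0, with a median of −0.05, and the endoplasmic reticulum stress gene *Herpud1* fell by 0.12. Of 40 sterol and fatty acid synthesis genes, the cholesterol synthesis gene *Hmgcs1* (0.25) and the fatty acid synthase *Fasn* (0.17) rose and 1 fell. The platelet chemokine gene *Ppbp*, from the progenitor and megakaryocyte markers, was at 5.56 to 7.39 CPM in WT and 3.19 to 4.94 CPM in Mcu-/- libraries (log2 fold change −0.55, edgeR adjusted p = 0.0235). Each of the genes named here lost the call without at least 1 library, *Herpud1* without any 1 of 4 and *Rps29*, *Fasn* and *Ppbp* without either of 2 (edgeR adjusted p up to 0.2).

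On chromosome 1 from 170000001 to 175000000, 5 of 63 genes tested were called (7.94%, against 3.71% of all genes), all higher. They were the interferon-inducible neighbours *Ifi204* (0.17), *Ifi205* (1.04) and *Ifi206* (0.71) and the leukocyte receptors *Cd84* (0.14) and *Slamf8* (0.46). Of these, *Slamf8* lost the call without any 1 of 6 libraries, *Ifi205* without any 1 of 5, and *Ifi204* and *Cd84* without any 1 of 3. *Ifi206* was at 2.14 to 3.09 CPM in WT, 4.35 to 4.54 CPM in Mcu-/- replicates 1 to 3 and 84.5 CPM in replicate 4. The genes *Ifi204*, *Ifi205* and *Ifi206* are near copies of one another, and how reads shared between them were counted is not given in the sources used here. On chromosome 11 from 115000001 to 120000000, 6 of 90 genes were called (6.67%), among them the interferon-inducible *Rnf213* (0.26) and *Lgals3bp* (0.17), the splicing factor *Srsf2* (0.13), and *Cd300e* (−0.22) and *Cd300ld3* (−0.19). *Lgals3bp*, *Srsf2* and *Cd300ld3* lost the call without at least 1 library. Both windows of this paragraph were picked for their many calls. Shares above that of all genes follow from that choice. The windows of chromosome 11 from 80000001 and of chromosome 4 from 130000001 also held 5 called genes each (9.8% and 7.35%).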
